A study of Mus musculus with 15 samples.

Results

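The replication and mitosis genes are a group of 36 listed mouse genes whose products copy the chromosomes or separate them, and their RNA rises in dividing cells. They were taken by gene symbol from a table of array signals. The array carried 80 probe sets for 35 of the 36 genes, out of 45101 probe sets and 18194 named genes in all, and Ccnb1 was not analysed here. A probe set is a group of short probes for one stretch of a transcript. Of the 80 probe sets, 73 passed a filter on low signal, and each of the 35 genes kept at least 1 of them.

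RNA was taken from the first branchial arch, the paired swelling that forms the jaws, of E10.5 mouse embryos. There were 15 arrays, 3 in each of 5 groups. The groups were the mandibular (lower jaw) branch of Dlx5/6 mutants, the wild-type (WT) mandibular branch, a KO maxillary (upper jaw) branch, and WT maxillary branch in a pair of groups called set 2 and set 1 here. Dlx5 and Dlx6 encode homeodomain factors that specify the lower jaw. The labels gave no strain and named no gene for the KO arrays, and a text shared by all arrays, written as a plan with arches to be pooled, spoke of mutants in dlx2, in dlx1/2 and in Dlx5/6. No label said whether arrays of a group came from separate embryos or pools, so each p value below measures the spread between arrays only, which may be technical.

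Before a cell copies its DNA, the MCM helicase ring is loaded onto replication origins and is then switched on with the help of the GINS complex, while ribonucleotide reductase and thymidylate synthase make the DNA building blocks. Cyclins and their kinases drive entry into DNA synthesis and mitosis. In mitosis the aurora and polo kinases, kinesin motors and microtubule-binding proteins build the spindle, and the checkpoint kinases hold back separation until every chromosome is attached. Most of these genes are transcribed mainly in cycling cells, through E2F factors for the replication genes and through CCAAT boxes and CHR elements for many mitotic genes. The neural crest cells that fill the arch at this stage divide rapidly.

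These promoter elements were more frequent among the members than among all genes, although 5 members held none of them and 2 held all. RefSeq promoter windows (build GRCm38.p6, from 250 bases before to 50 bases after the annotated start) were given for 30 of the 36 listed genes, Ccnb1 included. They were searched on both strands for CCAAT, for the CHR letters TTTGAA, and for the E2F letters TTNNCGC with C or G at each N. CCAAT stood in 24 of the 30 members' windows (80.0%), against 41.1% of 27025 genes with a window. CHR letters stood in 13 members (43.3%) against 20.2% of all genes, and E2F letters in 11 members (36.7%) against 10.9%. The E2F and CHR letters were divided by role, and CCAAT was not. Among the 10 replication and nucleotide synthesis genes with a window, 7 held E2F letters and 1 held CHR letters. Among the other 20 members 4 held E2F letters and 12 held CHR letters. CCAAT stood in 8 of the 10 and in 16 of the 20, 80.0% of each. Matched letters are a description and not a binding site.

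The upstream 250 bases of 4 members are printed below in the direction of transcription, with the matched letters in capitals. Cdk1, which encodes the mitotic kinase, carried all 3 kinds of element. Top2a, which encodes the topoisomerase that untangles chromosomes, had the most CCAAT boxes of the members. Mcm6, a helicase subunit, had pairs of E2F matches on opposite strands that overlap. Nusap1, the member called by the tests below, had none of the letters in its window, as had Birc5, Ccne1, Mad2l1 and Tyms. The Cdk1 stretch lies at chr10:69352913-69353162 on the minus strand, that of Top2a at chr11:99024190-99024439 on the minus strand, that of Mcm6 at chr1:128359706-128359955 on the minus strand, and that of Nusap1 at chr2:119618048-119618297 on the plus strand.
Cdk1: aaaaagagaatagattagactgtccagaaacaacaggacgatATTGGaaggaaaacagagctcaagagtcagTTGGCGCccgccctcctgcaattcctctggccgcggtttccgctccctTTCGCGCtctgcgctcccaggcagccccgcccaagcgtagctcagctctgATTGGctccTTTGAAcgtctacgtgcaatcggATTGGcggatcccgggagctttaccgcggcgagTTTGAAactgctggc
Top2a: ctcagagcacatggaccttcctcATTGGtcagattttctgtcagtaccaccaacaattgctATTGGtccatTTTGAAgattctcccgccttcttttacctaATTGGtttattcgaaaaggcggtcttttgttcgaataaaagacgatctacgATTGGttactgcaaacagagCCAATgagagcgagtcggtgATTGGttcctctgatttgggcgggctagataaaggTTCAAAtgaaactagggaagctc
Mcm6: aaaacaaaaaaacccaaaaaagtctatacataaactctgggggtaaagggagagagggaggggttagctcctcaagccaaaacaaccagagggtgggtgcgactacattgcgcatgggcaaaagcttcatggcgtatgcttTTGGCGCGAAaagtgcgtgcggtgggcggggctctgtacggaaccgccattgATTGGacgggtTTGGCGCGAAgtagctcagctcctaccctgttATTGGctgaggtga
Nusap1: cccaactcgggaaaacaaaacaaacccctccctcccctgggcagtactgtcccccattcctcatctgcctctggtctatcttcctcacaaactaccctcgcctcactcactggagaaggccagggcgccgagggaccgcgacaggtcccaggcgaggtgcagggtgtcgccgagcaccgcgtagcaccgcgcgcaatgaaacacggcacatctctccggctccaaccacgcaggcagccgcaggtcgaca

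The arrays came in 2 sets by their spike-in controls. The dap control read 423 to 507 on 9 arrays (Dlx5/6 mutant mandibular, WT mandibular, WT maxillary set 1) and 3612 to 3774 on the other 6 (KO maxillary, WT maxillary set 2). Each mutant is therefore set against wild type of its own array set. The deleted genes followed the Dlx5/6 label: Dlx5 read 10.9 ± 2.97 in the mutant and 727 ± 40.5 in WT mandibular arrays (SD, n = 3 each), and Dlx6 read 3.32 ± 1.52 against 249.6 ± 51.3. In the KO arrays Dlx2 read 3.36 ± 0.180 against 422 ± 20.1 in set 2, and Dlx1 read 209 ± 11.7 against 711 ± 30.8. Whether these probes fall inside a deleted stretch was not examined. All 7 arch mesenchyme markers (Prrx1, Prrx2, Twist1, Msx1, Dlx2, Tfap2a and Pdgfra) passed the filter on low signal. That filter asks for signal on any 3 arrays, so passing it does not describe each group.

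Signals of the member genes were among the highest on the arrays. Each gene was ranked by the 1 probe set used for it, among all probe sets of an array other than controls. The median member lay at the 95.8th percentile, and 29 of 35 lay above the 90th. Choosing a bright probe set raises this rank, and some other probe sets of members were dim, such as 1 of Top2a that averaged 2.29. No rank among genes was taken. Pcna, the sliding clamp of DNA polymerase, averaged 7876 over the 15 arrays, Rrm2, a subunit of ribonucleotide reductase, 3536, and Top2a 3395. The members with the least signal were Ccne1, the cyclin that starts DNA synthesis, at 452, the GINS subunit gene Gins2 at 367 and the thymidylate synthase gene Tyms at 81.4. These figures are deposited linear intensities and do not rank the amounts of the RNAs, because each probe set has its own response. Within groups the members varied little: the median residual SD of a member was 0.0645 on the log2 scale, against 0.115 for the 8060 genes at least as bright as Tyms and 0.154 for all 13934 genes. A gene with several kept probe sets is represented by its brightest, chosen first among those not marked as able to bind several transcripts.

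**Figure D1:**
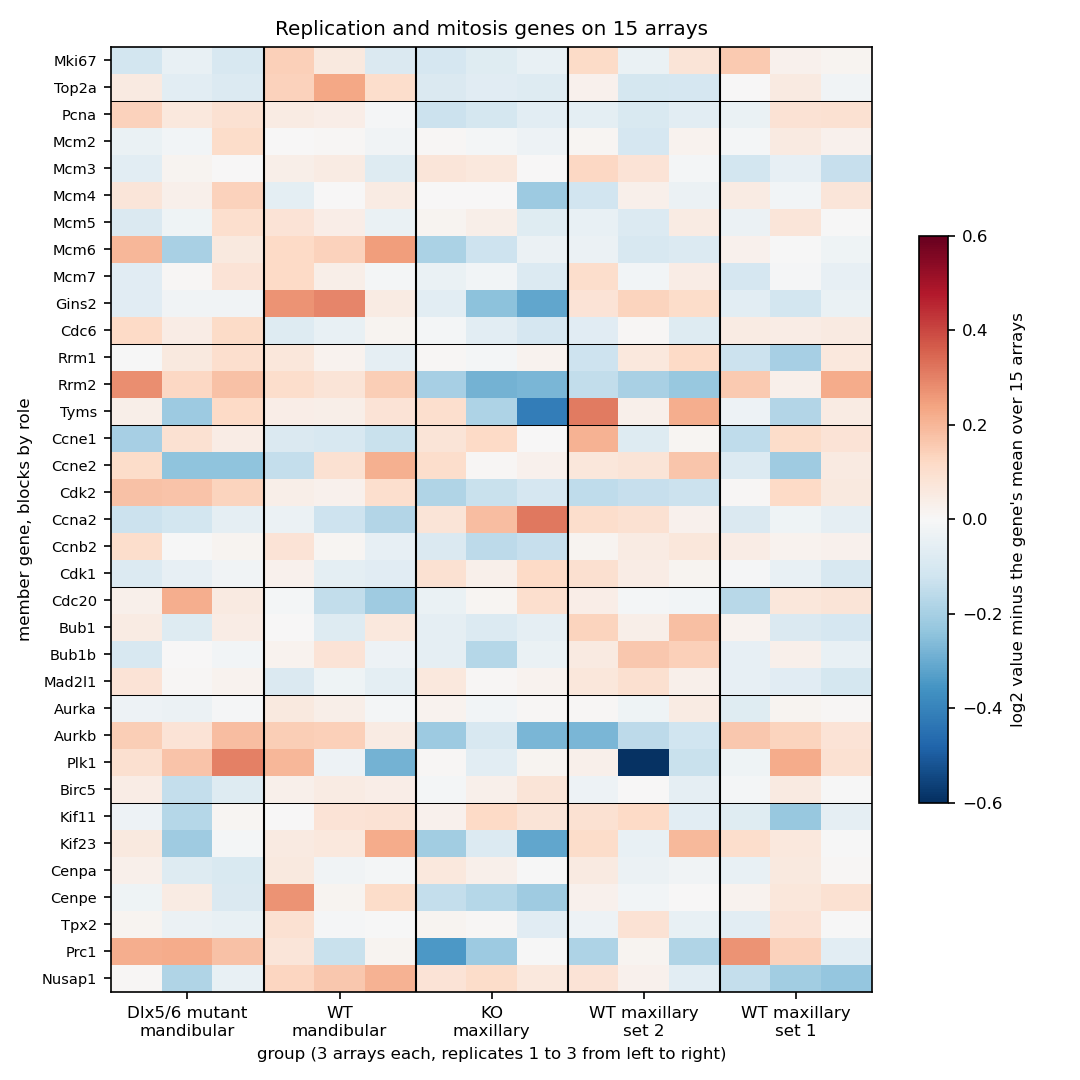
Each row is a member gene in blocks by role, each column an array in the order Dlx5/6 mutant mandibular, WT mandibular, KO maxillary, WT maxillary set 2 and set 1, and colour gives the log2 value minus the gene's mean over the 15 arrays. Aurkb and Rrm2 are blue on the KO and set 2 arrays and white to red on the other 9, Gins2 and Nusap1 are redder on the WT mandibular arrays than on the mutant ones, and the darkest cell is Plk1 on the second set 2 array.

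The first comparison asked whether the replication and mitosis genes change in the mandibular branch that lacks Dlx5 and Dlx6. Of 35 genes, 0 were called higher and 1 was called lower, the spindle gene Nusap1. Across all genes 3.16% were called (440 of 13934), so the members' share lay near the background. The median log2 change of the members was -0.02, beside -0.01 over all genes, with 16 members above 0 and 19 below. Of all genes, 6676 lay above 0 and 7258 below. An unadjusted limma p under 0.05 was found for 6 members and for 2010 of the 13934 genes. Every member's 95% interval lay within a 1.5-fold change in either direction, as did those of 82.3% of all genes, and 27 of 35 lay within a 1.25-fold change. Here and below, genes were called at a limma adjusted p under 0.05 and ± after a log2 change is its SE.

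Nusap1 encodes a protein that bundles and anchors spindle microtubules. Its signal was 952, 824 and 913 on the Dlx5/6 mutant arrays, against 1034, 1063 and 1077 on the WT mandibular arrays. The groups did not overlap. The log2 change was -0.24 ± 0.07 (95% interval -0.38 to -0.11, limma adjusted p = 0.0491), a fold of 0.846. The call was lost when any 1 of 5 of the 6 arrays was left out and held only without the first mutant array, with an adjusted p of 0.0449 to 0.276 over the 6 fits. The other Nusap1 probe set was dim, at 58.7, 48.9 and 83.4 in the mutant against 62.2, 59.5 and 53.2 in wild type, and was not called (0.08, adjusted p = 0.918). With a probe set as the unit, 1 of 73 was called, against 2.66% of 31643.

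Both general proliferation markers were below 0 without a call. Mki67, which encodes the Ki-67 antigen, read 2368, 2551 and 2377 in Dlx5/6 mutant arrays and 2799.6, 2610.0 and 2378 in WT mandibular arrays (log2 change -0.12, limma adjusted p = 0.406), and the groups overlapped. Top2a read 3564, 3408 and 3239 in the mutant and 3576, 3847 and 3587 in wild type, with no overlap, and its change of -0.19 ± 0.05 was not called (adjusted p = 0.0619). Its dimmer probe set read 321, 311 and 315 in the mutant against 427, 379.9 and 329, a change of -0.22 (adjusted p = 0.312). Top2a was called lower together with Nusap1 when the first mutant array was left out.

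The replication genes lay on both sides of 0, from -0.24 for Gins2 to 0.13 for Cdc6, which encodes a loader of the MCM helicase, with 4 of 9 positive and 0 called. The MCM helicase genes ran from -0.15 for Mcm6 to 0.08 for Mcm4. Gins2 read 348, 357 and 359.9 in Dlx5/6 mutant arrays and 451, 464 and 379.8 in WT mandibular arrays, and its adjusted p was 0.165. Pcna read 8519.9, 9396 and 8288 in the mutant and 7638, 7289 and 7346 in wild type. Those groups did not overlap, but the change depended on scaling. It was 0.07 after quantile normalization (limma adjusted p = 0.514), 0.21 with arrays shifted to a common median (0.0633) and 0.23 as deposited (0.0283, called higher). The 3 nucleotide synthesis genes ran from -0.07 for Tyms to 0.08 for Rrm2, without a call. Rrm2 read 4452, 4064 and 4026 in the mutant and 3612, 3595 and 3816 in wild type.

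The 6 cyclins and cyclin-dependent kinases ran from -0.18 for Ccne2 to 0.11 for Cdk2, with 0 called. Cdk1 read 2239, 2315 and 2324 in Dlx5/6 mutant arrays and 2377, 2261 and 2243 in WT mandibular arrays, a log2 change of -0.02 with groups that overlapped. Among the checkpoint genes, Cdc20, the activator of the ubiquitin ligase that starts chromosome separation, read 1755, 2009 and 1757 in the mutant and 1677, 1529 and 1455 in wild type. The groups were apart, and the change of 0.22 ± 0.07 was not called (limma adjusted p = 0.116). Plk1, the polo kinase gene, read 747, 782 and 862 in the mutant and 804, 682 and 565 in wild type (0.23, adjusted p = 0.451).

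Of the 7 spindle and centromere genes, 6 were below 0, with a median of -0.12, and Nusap1 alone was called. The exception was Prc1, which encodes a protein that crosslinks microtubules at the middle of the late spindle. It read 561, 558 and 542 in Dlx5/6 mutant arrays and 506, 437 and 479 in WT mandibular arrays, a log2 change of 0.22 (limma adjusted p = 0.312), while its other probe set changed by -0.03. The centromere kinesin gene Cenpe changed by -0.15 (0.34) and the spindle kinesin genes Kif11 and Kif23 by -0.12 (0.549) and -0.17 (0.407), with the adjusted p in brackets.

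**Figure D2:**
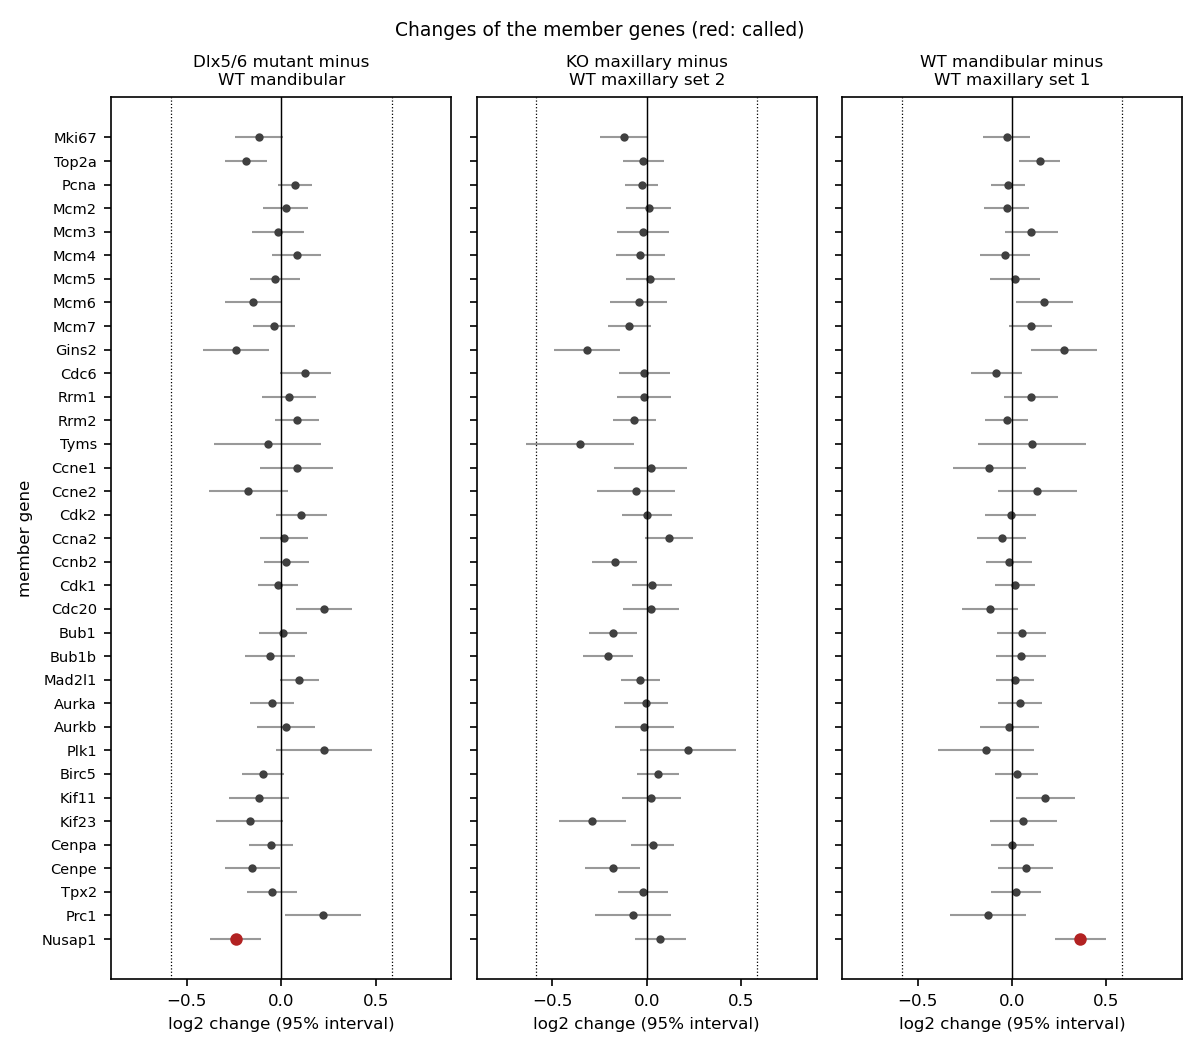
Points are log2 changes of the 35 member genes in 3 comparisons, lines their 95% intervals from limma, red points the called genes, and dotted lines a 1.5-fold change in either direction. Nusap1 is the called gene of the left panel (-0.24) and the right panel (0.36), no gene is called in the middle panel, and the Tyms interval of the middle panel (-0.64 to -0.07) is the one that crosses a dotted line.

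The second comparison set the KO maxillary branch against WT maxillary set 2. None of the 35 genes was called in either direction by limma, against 1.26% of all genes (175 of 13934). An unadjusted limma p under 0.05 was found for 7 members and for 1619 of the 13934 genes. The median log2 change was -0.02, beside -0.00 over all genes, with 23 members below 0 and 12 above. Of all genes, 7022 lay below 0 and 6912 above. The interval stayed within a 1.5-fold change for 34 of 35 members, against 81.6% of all genes. Tyms was the exception. On the quantile-normalized scale the mean of the members was lower on each KO array, at 10.17 ± 0.0110 (log2, SD, n = 3), than on any other array, with 10.22 ± 0.0195 in set 2 and 10.21 ± 0.0101 in set 1. The median of the members did not set the KO arrays apart from all others. It was 10.2196 to 10.2566 on KO arrays and 10.2823 to 10.3336 in set 2, but 10.2229 on the third WT mandibular array.

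The largest changes toward lower signal were those of Tyms and Gins2. Tyms read 90.5, 70.9 and 53.7 on KO arrays and 106, 82.8 and 97.7 on set 2 arrays, which overlapped (-0.35 ± 0.14, limma adjusted p = 0.332), and its other kept probe set changed by 0.10. Without the third KO array the change was -0.23, and over all fits without 1 array it ran from -0.49 to -0.23. Gins2 read 345, 298 and 282 on KO arrays and 389, 398 and 394 on set 2 arrays, with no overlap (-0.32 ± 0.08, adjusted p = 0.0904). Its change was -0.39 and was called with arrays shifted to a common median (0.0456), while its other probe set changed by -0.05.

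The largest changes toward higher signal were those of Plk1 and Ccna2, the cyclin gene of DNA synthesis and early mitosis. Plk1 read 684, 645 and 693 on KO arrays and 705, 441 and 624 on set 2 arrays (0.22 ± 0.12, limma adjusted p = 0.581). The second set 2 array was low, and without 1 array the change ran from 0.04 to 0.35. Ccna2 read 1791, 1920.0 and 2157 on KO arrays and 1844, 1863 and 1745 on set 2 arrays (0.12 ± 0.06, adjusted p = 0.547), and its other probe set changed by -0.04. The third KO array was the highest, and without it the change was 0.06. Mki67 read 2406, 2404 and 2512 on KO arrays and 2751, 2572 and 2697 on set 2 arrays, without overlap and without a call (-0.12, adjusted p = 0.51).

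With a probe set as the unit, 2 of 73 were called in the KO arrays, against 0.913% of 31643, and both belong to spindle checkpoint kinases. These were named after their calls were seen. The dim Bub1 probe set read 56.6, 81.8 and 68.1 on KO arrays and 119, 121 and 135 on set 2 arrays, with 131, 123 and 137 on set 1 arrays, so every KO array lay below every WT maxillary array. Its log2 change was -0.69 ± 0.12 (limma adjusted p = 0.00194), and the call held under every setting tried, at -0.86 to -0.39 and an adjusted p of 0.000245 to 0.0199. The change of -0.39 was that with the larger pseudocount. The bright Bub1 probe set read 1340.2, 1293 and 1342 on KO arrays and 1538, 1448 and 1577 on set 2 arrays. Those groups did not overlap either, but the change of -0.18 was not called (adjusted p = 0.252).

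For Bub1b, which encodes the checkpoint protein BubR1, a bright probe set read 596, 783 and 831 on KO arrays and 952, 997 and 922 on set 2 arrays (-0.36 ± 0.09, limma adjusted p = 0.0469). The first KO array was the lowest, and without it the change was -0.22 (0.241). The call was lost in 9 of 17 settings. These were 5 of 6 fits without 1 array, all but that without the third KO array, and the fits without the filter (0.0842), without the intensity trend (0.193), with the replicate block (0.0739) and of the compared groups alone (0.109). It is marked (_s_at) as able to bind several transcripts. The Bub1b probe set used for the gene read 845, 771 and 856 on KO arrays against 925, 992 and 982, a change of -0.21 that was not called (adjusted p = 0.176). The third Bub1b probe set, near the filter, changed by 0.17. The other checkpoint genes, Cdc20 and Mad2l1, changed by 0.02 and -0.03.

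**Figure D3:**
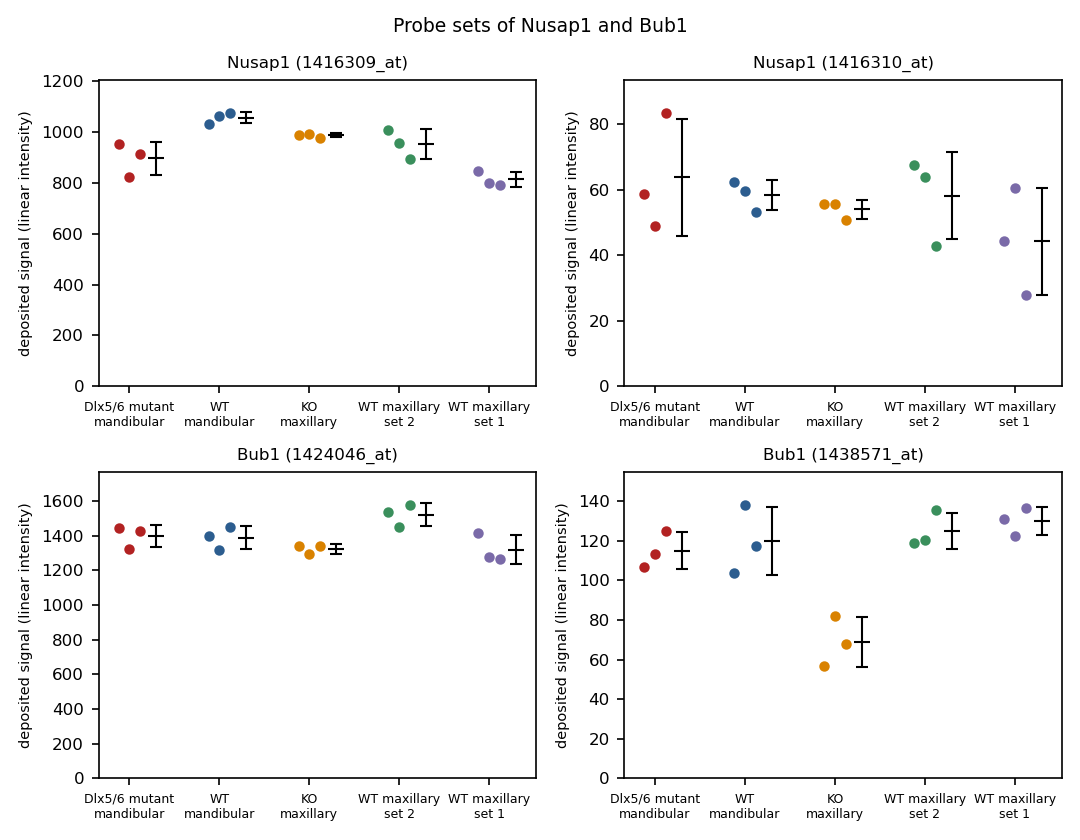
Deposited signal of both kept probe sets of Nusap1 (top) and of Bub1 (bottom), with coloured points for the arrays of each group and black bars for the mean and SD (n = 3). The bright Nusap1 probe set is highest in WT mandibular (1034 to 1077) and lowest in WT maxillary set 1 (793 to 849), and the dim Bub1 probe set is lowest in the KO arrays (56.6 to 81.8).

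The third comparison asked whether the 2 branches of the wild-type arch differ in these genes. Nusap1 was the 1 member called higher in the mandibular branch and 0 were called lower, against 3.56% of all genes (496 of 13934). The median log2 difference was 0.02, beside 0.00 over all genes, and all 35 intervals stayed within a 1.5-fold change, against 81.1% of all genes. The unadjusted limma p was under 0.05 for 5 members and for 1924 of the 13934 genes. Nusap1 read 1034, 1063 and 1077 in WT mandibular arrays and 849, 801 and 793 in WT maxillary set 1, with no overlap. The log2 difference was 0.36 ± 0.07 (95% interval 0.23 to 0.50, limma adjusted p = 0.0014), a fold of 1.28. It was called with any 1 array left out, at 0.34 to 0.39. Against set 2, which read 1009, 959 and 894, the difference was 0.15 and was not called (adjusted p = 0.152), and the dim Nusap1 probe set differed by 0.28 (0.541). This comparison and the Dlx5/6 comparison share the WT mandibular arrays. With a probe set as the unit, 1 of 73 was called, against 2.64%.

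The other members of this comparison were not called. Gins2 was nearest by size, with 451, 464 and 379.8 in WT mandibular arrays and 348, 338 and 359 in WT maxillary set 1 (0.27, limma adjusted p = 0.102). Top2a read 3576, 3847 and 3587 in WT mandibular arrays and 3395, 3364 and 3182 in set 1 (0.15, adjusted p = 0.194), and these groups did not overlap. Mki67 differed by -0.03, Pcna by -0.02 and Cdk1 by 0.02. The difference lowest on the scale was that of Plk1, at -0.14 (adjusted p = 0.753).

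The difference between the Dlx5/6 effect and the KO effect was tested in the same model. None of the 35 genes was called by limma, against 1.44% of all genes (200 of 13934). An unadjusted limma p under 0.05 was found for 5 members and for 1513 of the 13934 genes. The 2 largest differences below 0 were -0.31 for Nusap1 (limma adjusted p = 0.138) and -0.17 for Top2a (0.436), and the 2 largest above 0 were 0.29 for Prc1 (0.48) and 0.28 for Tyms (0.697). Without the third KO array the Tyms difference was 0.16. On the KO side Nusap1 had read 989.5, 995 and 979 in KO arrays and 1009, 959 and 894 in set 2, and Top2a 3241, 3284 and 3291 in KO arrays and 3403, 3331 and 3213 in set 2. Prc1 had read 360.3, 392 and 465 in KO arrays and 411, 472 and 409.9 in set 2. Of the 73 probe sets, the dim Bub1 probe set was called (0.67 ± 0.17, adjusted p = 0.047), against 1.09% of all. It had read 107, 113 and 125 in Dlx5/6 mutant arrays and 104, 138 and 117 in WT mandibular arrays.

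**Figure D4:**
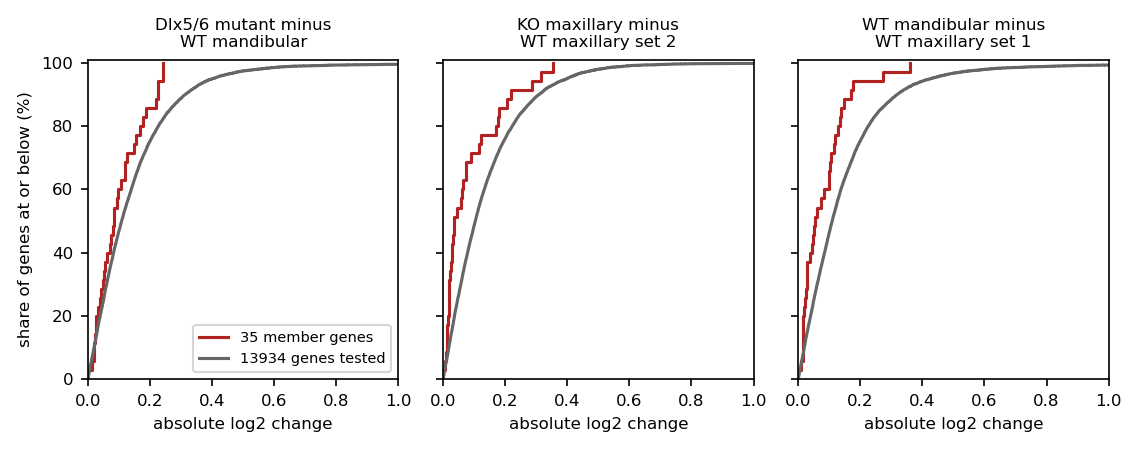
The share of genes (%) at or below each absolute log2 change is drawn for the 35 member genes (red) and the 13934 genes tested (grey) in 3 comparisons. The member curve climbs earlier in each panel, with median absolute changes of 0.0824, 0.0344 and 0.0552 against 0.108, 0.104 and 0.109 for all genes.

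The members are brighter and less variable between arrays than most genes tested, and the part of that in their small changes was not tested. Comparisons across the array sets gave more calls for all genes. KO maxillary against WT maxillary set 1 called 11.6% of genes, and WT mandibular against WT maxillary set 2 called 11.5%. The wild-type maxillary groups themselves, set 2 against set 1, differed in 9.1% of genes, and here array set and any other difference between the groups cannot be told apart.

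In that wild-type comparison 2 of the 35 members, Rrm2 and Aurkb, were called lower in set 2 and 0 higher, against 9.1% of all genes. Rrm2 read 3127, 3227 and 3014 in set 2 and 3902, 3429 and 3916 in set 1 (-0.33, limma adjusted p = 0.000448). The groups overlapped on its other probe sets. These read 2173, 2057 and 2163 in set 2 against 2483, 2206 and 2138 in set 1, and 4263, 4500 and 4080 against 5069, 4447 and 4503. Aurkb, the kinase gene of the chromosomal passenger complex, read 404, 435 and 447 in set 2 and 555, 545 and 528 in set 1 (-0.31, adjusted p = 0.0101). Every Aurkb probe set is marked (_x_at or _s_at) as able to bind several transcripts. The other one overlapped, with 414, 345 and 444 in set 2 and 430, 408 and 478 in set 1. KO against set 1 called Rrm2 (-0.39), Aurkb (-0.32), Prc1 (-0.30), Cenpe (-0.23), Cdk2 (-0.20) and Pcna (-0.14) lower and Nusap1 (0.28) and Ccna2 (0.25) higher. That is 6 lower and 2 higher of 35 members, against 11.6% of all genes called. WT mandibular against set 2 called Aurkb and Rrm2 (0.30 each), Mcm6 (0.24) and Top2a (0.22) higher. That is 4 of 35 members, against 11.5% of all genes. None of the members named here other than Nusap1 was called within an array set.

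Other genes of the cell cycle were counted from lists. Of 47 further replication genes tested (origin recognition, polymerases, clamp loader, chromatin assembly), 0 were called by limma in either direction in the Dlx5/6, KO or wild-type branch comparison. Their medians were -0.00, -0.03 and 0.00. An unadjusted limma p under 0.05 was found for 7, 4 and 3 of them, against 2010, 1619 and 1924 of 13934 genes. Of 64 further mitosis genes, 1 was called higher and 1 lower in the Dlx5/6 mutant, 1 higher and 1 lower in the KO arrays, and 1 lower in the WT mandibular branch. Over all genes 3.16%, 1.26% and 3.56% were called in these comparisons. The medians of the mitosis genes were -0.01, -0.06 and 0.01. For 14, 10 and 12 of the 64 the unadjusted limma p was under 0.05, against 2010, 1619 and 1924 of 13934 genes. In the KO comparison 48 of the 64 lay below 0, against 7022 of all 13934 genes. With set 1 of the other array set as the wild type, 37 of the 64 lay below 0, against 7145 of all genes. Their median change was then -0.03.

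In the Dlx5/6 mutant the phosphatase gene Cdc25a, which activates cyclin-dependent kinases, read 1003, 987 and 1054, against 455, 739 and 852 in WT mandibular arrays. The wild-type arrays spread widely and none reached the mutant values (0.60 ± 0.13, limma adjusted p = 0.0126), while the other Cdc25a probe sets changed by 0.05 and 0.30 without a call. The call was lost without the third mutant array (0.0635), without the intensity trend (0.106), with robust moderation (0.0725) and with a fit of the compared groups alone (0.0724). Without the lowest WT mandibular array, the first, the change was 0.34 (0.0271). In the wild-type branch comparison Cdc25a was called lower, with 965, 840.5 and 995 in set 1 (-0.49 ± 0.13, adjusted p = 0.0481). That call was lost in 11 of 18 settings, and without the lowest WT mandibular array the difference was -0.23 (0.208). Both comparisons use the WT mandibular arrays. The kinesin gene Kif20b read 303, 242 and 308 in the mutant and 412, 381 and 424 in wild type (-0.46 ± 0.09, adjusted p = 0.00334), and its other probe sets changed by 0.34 and 0.06 without a call. The call held in all 17 other settings tried, with an adjusted p of 0.00227 to 0.0365.

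In the KO arrays the kinesin gene Kif18a, whose product limits the movement of aligned chromosomes, read 279.6, 226 and 277, against 379, 356 and 419.6 in set 2 (-0.51 ± 0.10, limma adjusted p = 0.00725). It was lost without the second KO array (0.0732) or the third set 2 array (0.0659). Against set 1, at 314, 257 and 258, the KO change was -0.05 (0.8). The condensin gene Ncapd2 read 837, 801 and 759 on KO arrays and 650.0, 627 and 684 on set 2 arrays (0.28 ± 0.06, adjusted p = 0.0207). Set 1 lay above both, at 1119, 1121 and 1106, so that against set 1 the KO change was -0.47 and of opposite sign (adjusted p = 1.54e-05). Against set 2 the call was lost in 4 of 6 fits without 1 array, namely without the first or second KO array (0.119, 0.0845) or the first or second set 2 array (0.0911, 0.0965). It was also lost with a common median (0.175), without the intensity trend (0.117) and with the compared groups alone (0.0758).

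Of 19 genes of cycle exit and p53 response tested, Cdkn1c was called in 2 comparisons. It encodes p57, an inhibitor of cyclin-dependent kinases, and read 1819, 1901 and 1981 in Dlx5/6 mutant arrays and 2232, 2393 and 2555 in WT mandibular arrays, without overlap (-0.35 ± 0.06, limma adjusted p = 0.00109). This held without any 1 array, and was lost without the intensity trend (0.05). It was higher in the WT mandibular branch than in WT maxillary set 1 (0.28 ± 0.06, adjusted p = 0.00746), where it read 2058, 1929.7 and 1836. That call was lost without the third WT mandibular array (0.0607), the third set 1 array (0.0675) or the intensity trend (0.117). Against set 2 (2487, 2732 and 2721) the difference was -0.11 (0.317). Pmaip1, which encodes a cell death protein induced by p53, read 21.5, 24.8 and 27.4 in WT mandibular arrays and 68.3, 79.2 and 62.4 in set 1 (-0.80 ± 0.14, adjusted p = 0.000715). The call held in all 18 other settings, from -1.26 against set 2 to -0.35 with the larger pseudocount. None of the 19 was called by limma in the KO comparison, against 1.26% of all genes. There 2 of the 19 had an unadjusted limma p under 0.05, against 1619 of 13934 genes. Over all genes 3.16% were called in the Dlx5/6 comparison and 3.56% in the wild-type branch comparison.

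Markers of cells that are not arch mesenchyme differed in the same comparisons. In whole tissue, fewer cells of a type and less RNA per cell cannot be told apart. The summed signal of 11 sensory neuron markers was 529 to 629 in Dlx5/6 mutant and 520.4 to 554 in WT mandibular arrays, 935 to 952 in KO and 1137 to 1152 in set 2 arrays, and 2727 to 2811 in set 1. All 10 of the neuron markers tested were called lower in the WT mandibular branch than in set 1, and Prph did not pass the filter. Neurod1 alone of the 10 was called in the Dlx5/6 mutant, higher, and Neurog1, Nefl and Nefm were called lower in KO arrays. The sum of 4 glial markers was 172 to 228 in WT mandibular arrays and 604 to 765 in set 1, with 3 called lower. The sum of 10 macrophage markers was 607 to 657 in Dlx5/6 mutant arrays against 411 to 421 in WT mandibular arrays, and 853 to 940.3 in KO against 606 to 616 in set 2. All 10 lay above 0 in the Dlx5/6 comparison and 8 in the KO comparison. Only Csf1r was called higher in the Dlx5/6 mutant, and only Csf1r and Mrc1 in KO arrays. The sum of 7 endothelial markers was 1009 to 1133 in KO and 719 to 829.6 in set 2 arrays, with Emcn alone called higher. That of 6 arch muscle precursor markers was 212 to 218 in Dlx5/6 mutant arrays and 321 to 338 in WT mandibular arrays, with Myf5 alone called lower. The same muscle sum was 251 to 309.9 in KO and 154 to 225 in set 2 arrays, with Lhx2 alone called higher. It was 321 to 338 in WT mandibular against 146 to 213 in set 1, with Myf5 and Tcf21 called higher. The sum of 7 epithelial markers was 2268 to 2371 in KO and 1967 to 2049.6 in set 2 arrays, with 0 called. Of the 7, 5 had an unadjusted limma p under 0.05, against 1619 of 13934 genes. The sum of 7 erythroid markers was 25860.5 to 29447.5 in Dlx5/6 mutant and 23699 to 24679 in WT mandibular arrays, with 0 called. The mean of the 6 tested was lower in the mutant, at 9.87 against 9.93 (log2, quantile normalized). The erythroid sum was 27730 to 28733 in KO and 24813 to 27641 in set 2 arrays, with 0 called. In set 1 it was 22896 to 23546, and Hba-x was called higher in the WT mandibular branch. Over all genes 3.16%, 1.26% and 3.56% were called in the Dlx5/6, KO and wild-type branch comparisons. The arch mesenchyme markers differed as well. Their sum was 7853 to 8340.1 in Dlx5/6 mutant and 6577 to 7177 in WT mandibular arrays, with Prrx2 and Twist1 called higher and Msx1 lower. It was 6986 to 7282 in KO and 7903 to 8274 in set 2 arrays, with Tfap2a called higher and Prrx1 and Dlx2 lower. That sum includes Dlx2 itself, which read 3.36 in KO and 422 in set 2 arrays. Between the wild-type branches the mesenchyme sum was 6577 to 7177 in WT mandibular arrays and 8035 to 8521 in set 1. There Pdgfra was called higher and Prrx1, Prrx2, Twist1 and Tfap2a lower in the mandibular branch. The part of these cells in the values of Nusap1, Bub1, Cdkn1c and the other genes named above was not tested.

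**Figure D5:**
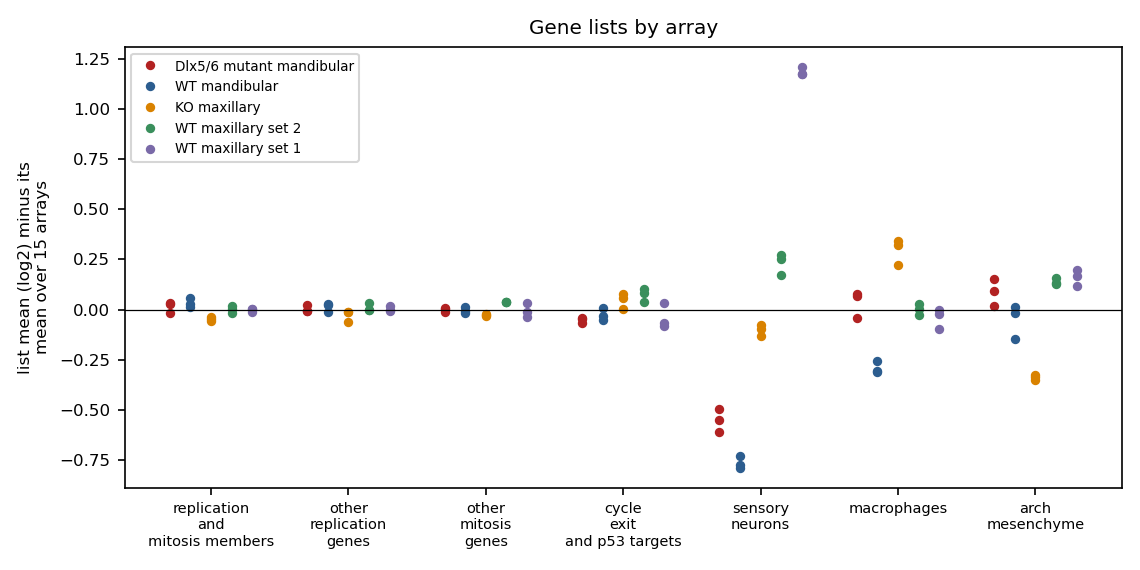
Points are single arrays, coloured by group, and give the mean log2 value of a gene list minus its mean over the 15 arrays. The replication and mitosis members stay within a narrow band (group means 10.17 to 10.25 before centring), while the sensory neuron list separates the groups widely.

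Correlations between members were near 0 on average. The mean correlation between pairs of members over the 15 arrays was 0.0484, and 0.0369 after the group means were removed, and a member's correlation with the mean of all members ran from -0.677 to 0.751. The points share the quantile normalization and the array sets. The genes outside the list most like the mean of the members were Serp2 (r = 0.913), Lrig3 (0.892), Crk (0.890), Atxn7l1 (0.886) and Arhgap24 (0.879), by Pearson correlation over 15 arrays that fall into the 5 groups. They were the highest of all tested genes outside the list, and the values are a description.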

How the data were processed

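Affymetrix mouse arrays gave 1 linear intensity value per probe set, as deposited. The authors had scaled them: the trimmed mean intensity was 150.0 on each array. The software and the way probes were summarised are not given in the sources used here. Median deposited intensity ran from 26.6 to 33.4. For the present comparisons, log2(value + 32) was quantile normalized because array medians differed by 0.159. Adding 32 shrinks the changes of dim genes. A probe set was kept where 3 or more arrays had it above their own 40th percentile (31643 were). The probe table gave 1 symbol for 34958 probe sets, several for 932 and none for 9211. RefSeq identifiers matched for 34754 and changed 0 symbols.

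All comparisons were contrasts in 1 limma model (limma 3.58.1, R 4.3.3) with a mean per group, 10 residual degrees of freedom and an intensity trend. Tests were two-sided, and calls were made under 0.05 after Benjamini-Hochberg adjustment over the 31643. The procedure was tested on simulated data. The number of arrays limits the precision. Members and lists were chosen with earlier results of these data known. Values are given for called members, for the 2 largest rises and falls where none was called, and for the 3 brightest and dimmest members, with Mki67, Cdk1, Cdc20, Plk1 and Prc1 added as examples of their roles. Of the other lists, up to 4 called genes in each direction were named.

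Residuals of arrays with the same replicate number correlated between -0.0958 and 0.0846 over 30 pairs, with 0 above 0.1. The replicate block was therefore kept as an alternative. Other scalings, pseudocounts, filters, variance models, probe set choices, controls and each array left out were tried. The settings for single probe sets of Bub1 and Bub1b, for Pcna and for the called genes of other lists were added after seeing the data.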

Additional observations from a re-analysis of the deposited data

Results flagged for a closer look

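The effect of the Dlx5/6 mutation in the mandibular branch and that of the KO in the maxillary branch differed for 1 probe set of the members, by the test of the difference itself. This was the dim probe set of the checkpoint kinase gene Bub1, with a difference of 0.67 (log2, limma adjusted p = 0.047). Its change was -0.69 in the KO arrays, where it read 56.6 to 81.8 against 119 to 135 in WT maxillary set 2. In the Dlx5/6 mutant arrays it read 107 to 125, against 104 to 138 in WT mandibular arrays. The bright Bub1 probe set had a difference of 0.19, which was not called (adjusted p = 0.483). Over the other settings the difference of the dim probe set ran from 0.38 to 0.84 with an adjusted p of 0.0251 to 0.146. It was not called with arrays shifted to a common median (0.0727), as deposited (0.0981), with the larger pseudocount (0.0625), without the filter (0.0812), without the intensity trend (0.0639), with a fit of the compared groups alone (0.0743), or in 10 of 12 fits without 1 array. With 3 arrays in every group, no outlier test was run.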

How the results depend on the processing

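The Dlx5/6 call of Nusap1 stood near the threshold. The count of member genes called there was 0 with arrays shifted to a common median, with the larger pseudocount, without a filter, without the intensity trend, with the replicate block, with the mean of all probe sets of a gene and with a fit of the compared groups alone. The Nusap1 adjusted p under the replicate block was 0.0644. As deposited, Pcna was called higher in its place. For the KO arrays the count was 1 with a common median (Gins2) and 1 with the mean of probe sets (Bub1). Against the other array set it was 8 of 35, where 11.6% of all genes were called. For the wild-type branches it was 0 with the mean of probe sets. Against set 2 it was 4 of 35, where 11.5% of all genes were called. For the difference of effects it was 1 with the mean of probe sets. The replicate block also ended the call of the bright Bub1b probe set in the KO arrays (0.0739), and it changed no other call of a gene or probe set named here.

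A common median moved the members' median change to -0.0947 in the KO arrays, 0.0920 between branches and 0.0869 for the difference. The median of all probe sets moved less, to -0.0409, 0.0414 and 0.0161. The members' median minus that of all probe sets was -0.0538, 0.0506 and 0.0707, against -0.0158, 0.0112 and 0.0398 after quantile normalization. As deposited it was also -0.0538, 0.0506 and 0.0707, with all probe sets at 0.0170, -0.00968 and -0.0192. The common median also moved the share of higher calls among called probe sets from 50.9% to 32.7% in the KO comparison and from 42.6% to 56.5% between branches. Without the trend 452 probe sets were called for Dlx5/6, 172 for KO and 219 for the difference. Against the other array set 3310 were called for KO and 3318 between branches. The causes were not tested.

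Leaving out 1 array gave 502 to 654 probe sets for Dlx5/6 (502 without the second mutant array, 520.0 without the third), 176 to 221 for KO (176, 181 and 189 without set 2 arrays 1 and 3 and KO array 2), 609 to 693 between branches and 261 to 309 for the difference. Member counts ran from 0 to 2 for Dlx5/6 and from 1 to 2 between branches, where Gins2 was added without the third WT mandibular array. They stayed 0 for KO and the difference. The members' median ran from -0.0576 to -0.00248, from -0.0310 to -0.0136, from 0.00198 to 0.0341 and from 0.00453 to 0.0812 for Dlx5/6, KO, branches and difference. Past the threshold, 1 gene named in the report changed direction, Ncapd2 in the KO arrays against set 1 (-0.47), and Cdkn1c between branches lost its call with the sign turned against set 2 (-0.11). No member passed the test in the KO comparison, and 3 arrays a group limit the changes that can be called.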
